A study of Aedes albopictus with 6 samples.

Results

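In Aedes albopictus, the Asian tiger mosquito, 733 nuclear small RNA tags from whole bodies had at least 20 counts in males and at least 20 in females. A tag is a distinct small RNA placed at one position. These 733 were every listed tag off the mitochondrial sequence that met both minimums, out of 22304 listed nuclear tags and 22773 listed tags in all. The groups were male adults and virgin females, both 2 days after emergence, with 3 libraries titled Male and 3 titled Female. The deposited table has a single count column for each sex, so values have no replicate check and no test across tags was possible.

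PIWI-interacting RNAs (piRNAs) are small RNAs longer than microRNAs that guide PIWI proteins to transposons and other targets. They are cut from long precursor transcripts of genomic clusters, and their 3′ ends are trimmed to varying positions, so that one precursor site can give several overlapping piRNAs. Mosquitoes carry an enlarged set of PIWI proteins and make piRNAs in body tissues as well as in the germ line, including piRNAs from viruses. In whole bodies, fewer cells that make a small RNA and less of it per cell cannot be told apart, and males and females differ in their gonads. Tag sequences, strand and gene annotation of the build were not used here. No tag is therefore assigned to a transposon, a gene or a strand. No tag is shown to be a piRNA, which length by itself cannot do.

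A level is in TPM, a count scaled by the column total that the deposited TPM values imply, 2060047 counts for males and 2677063 for females, with no length term. A fold is the ratio of these levels. Brackets hold 95% intervals that cover counting error only. For shares of tags they treat tags as independent, although many overlap, so these are too narrow. Every listed tag differed at least 2-fold between the sexes, and the 733 were chosen on these counts, so their folds and directions are a description.

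These tags were abundant within the list by choice, since they had to reach the count minimum in both sexes. The other nuclear tags counted in both sexes are those that missed this minimum. The direction of the differences in level below therefore follows from the choice and tests nothing. The median level of the 733 tags was 28.6 TPM in males and 16.1 TPM in females, against 4.85 and 4.86 TPM for the other 5290 nuclear tags counted in both sexes. They made up 3.29% of the listed nuclear tags, but held 49.5% of the listed nuclear counts in males and 28.3% in females. The IDs of the table follow abundance, since along their running numbers the summed count of both sexes never rose. The first listed number was 686, and the numbers up to 10000 included only 81 listed tags, 70 of which were among the 733. What the other numbers stand for was not given in the sources used here. Together the 733 tags held 4.95% of the implied male total and 2.81% of the implied female total.

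Most of these tags were higher in males. In all, 551 (75.2%, 71.9 to 78.3) were higher in males and 182 in females. Among all 6023 listed nuclear tags counted in both sexes, 52.4% were higher in males and 47.6% in females. Among all 22304 listed nuclear tags, many of them listed in a single sex, it was 30.3% and 69.7%. With 2 or 3 counts in the lower sex, listed male-higher tags began at 4.76-fold and female-higher ones at 3.33-fold. The 52.4% is therefore no like-for-like reference for the 75.2%. Because the minimum is in counts and the female total is larger, it was lower in TPM for females, 7.47, than for males, 9.71. With 10 TPM required in both sexes, 365 tags (67.8%) were higher in males and 173 in females. The split depended on the scaling. RLE, TMM and upper quartile factors were all computed on a list without unchanged tags. RLE factors lowered every male over female ratio 2.26-fold and gave 352 tags higher in males and 381 in females, whereas TMM factors, upper quartile factors and the totals of the listed tags left the split at 551 and 182.

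The sum over the 733 tags was 49474 TPM in males and 28122 TPM in females, a ratio of 1.76 (1.74 to 1.78), or 0.78 with RLE factors. The 551 male-higher tags summed to 44407 TPM in males and 14569 TPM in females, 3.05-fold (3.01 to 3.08) higher in males. The 182 female-higher tags summed to 5067 TPM in males and 13553 TPM in females, 2.67-fold (2.62 to 2.73) lower in males. In males the 10 most counted tags held 27.04% of the counts of the 733, and in females 21.5%.

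Most of the differences were small and lay near the edge of the list. The median fold was 2.43 for male-higher and 2.36 for female-higher tags, and 409 of the 733 tags were under 2.5-fold apart. The counting interval of the fold reached below 2 for 536 tags. Of the 733 tags, 78 (10.6%) were at least 4-fold higher and 10 (1.36%) at least 4-fold lower in males. In the background of nuclear tags counted in both sexes, 26.8% were at least 4-fold higher and 23.2% at least 4-fold lower in males. With TMM factors the 2 numbers of the 733 were 46 and 33, and with RLE factors 5 and 182, so which direction held more of the large differences also depended on the scaling. At least 8-fold apart were 8 male-higher and 2 female-higher tags, 1.09% and 0.27% of the 733, beside 6.39% and 2.82% in the background.

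The smaller folds of these tags went with their counts. Where the lower sex had 2 or 3 counts, the smallest listed fold was 4.76 for male-higher and 3.33 for female-higher tags. With 20 to 26 counts in the lower sex it was 2.00 and 2.01. From 20 counts on, the edge of the list was therefore at 2-fold for both directions, so that the 733 tags avoid the uneven edge of the less counted ones. Exactly 20 counts in one sex were found for 42 tags, 33 of them male-higher with a median fold of 2.27. Just outside, 60 tags had 19 counts in one sex, and the 43 male-higher ones had a median fold of 2.39. Those with most counts just inside were t00034454, with 81 counts in males and 20 in females, and t00032397, with 20 in males and 89 in females. Just outside stood t00025825, with 124 counts in males and 19 in females, and t00017771, with 19 in males and 203 in females.

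**Figure D1:**
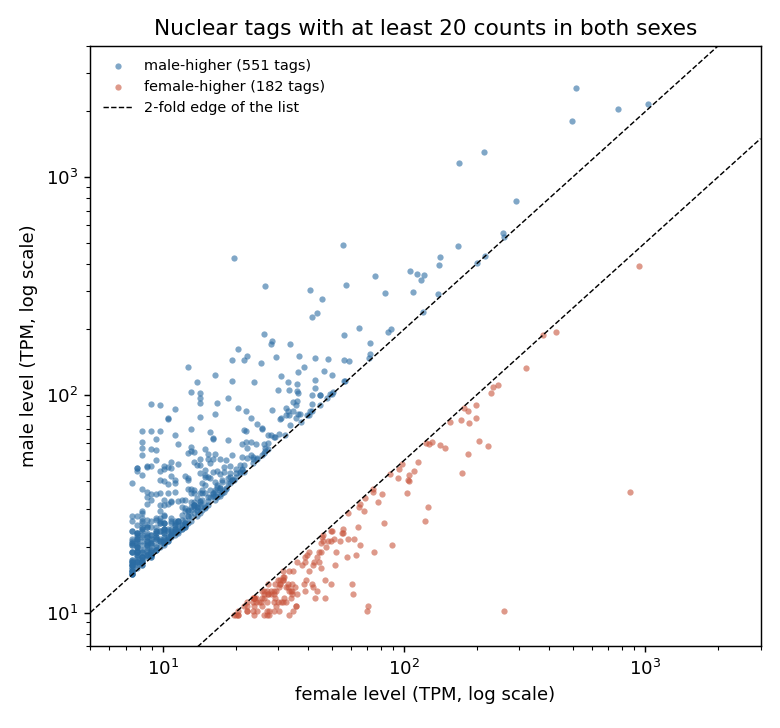
Level of each of the 733 tags in males (vertical axis) and females (horizontal axis), in TPM on log scales. The dashed lines mark the 2-fold edge of the list, and most of the 551 male-higher and 182 female-higher points lie close to them.

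At the highest levels the male-higher tags formed a small set. Of the 28 tags with a mean of both sexes of at least 200 TPM, 23 were higher in males (82.1%, 63.1 to 93.9). The share was 69.1% of 314 tags from 20 to 50 TPM and 69.3% of 127 tags from 50 to 200 TPM. Below 20 TPM it was 84.5% of 264 tags. There the count minimum, 7.47 TPM in females and 9.71 TPM in males, let in male-higher tags at lower means than female-higher ones. No trend with the level is therefore read from that class. The highest in males, the 24-nt tag t00000734 on NW_021839020.1, had 5283 counts in males and 1379 in females. The highest in females, the 28-nt tag t00000686 at NW_021839130.1 38474546 to 38474573, had 4449 counts in males and 2753 in females and was still 2.1-fold (2.00 to 2.20) higher in males. A 26-nt tag on the same scaffold, at 38468768, had a similar fold of 2.15 (1.96 to 2.37), with 554 TPM in males and 257 TPM in females. A 30-nt tag at NW_021838900.1 202102 to 202131, the only one of the 10 most abundant male-higher tags longer than 29 nt, stood at 774 TPM in males and 291 TPM in females, 2.66-fold (2.44 to 2.90) higher in males. The folds of these 10 tags ranged from 2.00 to 6.90. Those on NW_021839130.1, and the tags at NW_021837045.1 151624404 and NW_021838687.1 15957588, were lower in males with RLE factors.

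Of the 10 female-higher tags with most summed TPM, 9 were lower in males by 2.01-fold to 3.83-fold. The 29-nt tag at NW_021837600.1 41723655 to 41723683 had the largest fold of these 9, with 120 counts in males and 598 in females, 3.83-fold (3.15 to 4.71) lower in males. The exception, t00001939 at NW_021837226.1 47873, had 74 counts in males and 2314 in females. A 30-nt tag from the same first base, t00006236, had 21 counts in males and 693 in females. The folds of the pair, 24.1 (19.1 to 30.8) and 25.4 (16.5 to 41.3) lower in males, overlapped in their intervals although the tags differ by 4 bases at one end. No other female-higher tag of the 182 passed 8-fold.

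The next most female-biased tags stood at lower levels. The 27-nt tag t00018720 at NW_021838465.1 15004847 to 15004873 had 21 counts in males and 188 in females, 6.89-fold (4.38 to 11.4) lower in males. The 28-nt tag t00018529 at NW_021837156.1 62137804 to 62137831 had 22 counts in males and 190 in females, 10.7 and 71.0 TPM, and was 6.65-fold (4.26 to 10.9) lower in males. By fold it was 4th of the 182 female-higher tags. Its number is the one in the name of the piRNA of the series title, Aalpi18529, but the table does not pair its IDs with piRNA names, and whether they are the same small RNA was not tested. A pair of 30-nt tags followed, at NW_021838465.1 81239338 with a fold of 5.08 (3.32 to 8.08) and at NW_021838787.1 1214096 with a fold of 4.67 (3.50 to 6.35).

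The region of t00018529 changed direction along its length. Within 3121 bases of NW_021837156.1, from 62135316 to 62138436, lay 11 of the 733 tags. The first 4, up to base 62136316, were all higher in males, led by t00007016 with 400 counts in males and 229 in females and t00009488 with 297 in males and 151 in females. The last 4, from base 62137648 on, were all higher in females, and t00018529 differed most. Between them a stack at 62136395 held 1 male-higher and 2 female-higher tags. The sum of the region was 517 TPM in males and 440 TPM in females, a ratio of 1.17 (1.08 to 1.28), which fell to 0.86 with TMM factors and 0.52 with RLE factors.

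The most male-biased tags were spread over several scaffolds. The largest fold was that of the 28-nt tag t00004882 at NW_021837045.1 35725 to 35752, with 871 counts in males and 53 in females, 21.4-fold (16.2 to 28.7) higher in males. It was followed by the 28-nt tag t00006195 at NW_021838602.1 320694 to 320721, with 648 counts in males and 71 in females, 11.9-fold (9.27 to 15.4) higher. The 31-nt tag t00013333 on NW_021837267.1 was 10.5-fold (7.34 to 15.5) and the 24-nt tag t00018587 at NW_021839130.1 50828266 was 10.1-fold (6.60 to 16.2) higher in males. In the same stack as t00013333, the 27-nt tag t00018611 was 9.20-fold (6.08 to 14.5) higher. A 27-nt tag in no stack, t00003930 at NW_021838153.1 6635195 to 6635221, had 1004 counts in males and 150 in females, 8.70-fold (7.32 to 10.4) higher. The 78 male-higher tags at least 4-fold apart came from 46 loci on 18 scaffolds. Joined at gaps of at most 10 kb they lay in 31 groups, and 49 of them (62.8%) came from the 5 groups with most such tags. The 10 female-higher ones came from 9 loci on 8 scaffolds.

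By length, the male-higher tags were spread more widely around the usual piRNA size. Lengths of 24 or 25 nt accounted for 20.3% (17.04 to 23.9) of tags higher in males and 10.4% (6.4 to 15.8) of tags higher in females. Lengths of 27 or 28 nt accounted for 40.7% (36.5 to 44.9) and 55.5% (47.96 to 62.8). The other nuclear tags counted in both sexes had nearly the same shares, 21.02% and 9.84% at 24 or 25 nt and 40.97% and 56.3% at 27 or 28 nt. These shares lie within the intervals of the 733 tags. With 1 tag per stack, 21.8% (18.0 to 25.95) of tags higher in males and 7.5% (3.94 to 12.7) of tags higher in females had 24 or 25 nt.

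The share of male-higher tags varied with length. It was 87.7% (77.2 to 94.5) of the 65 tags of 24 nt, 66.7% (59.3 to 73.5) of the 180 tags of 27 nt and 80.0% (66.3 to 89.97) of the 50 tags of 30 nt. All 10 tags of 32 nt were male-higher, an interval of 69.2% to 100%. The share also varied with length among the other nuclear tags counted in both sexes, of which 49.3% were male-higher. There it was 69.5% at 24 nt, 40.3% at 27 nt, 55.4% at 30 nt and 63.9% at 32 nt. For the tags that reached the count minimum, the share over all lengths, 75.2%, lay within the intervals at 30 and 32 nt. Over the 5 length classes of the plot by length, the median fold ranged from 2.40 (27 or 28 nt) to 2.54 (26 nt) for male-higher tags and from 2.28 (26 nt) to 2.68 (29 or 30 nt) for female-higher tags. For single lengths the highest medians were 2.73 for the 57 male-higher tags of 24 nt and 3.07 for the 10 female-higher tags of 30 nt. Weighted by male counts, 25.5% of the male-higher set was of 24 or 25 nt, and weighted by female counts 8.69% of the female-higher set. The longest tags with most counts were a 33-nt tag at NW_021837045.1 125969329, with 274 counts in males and 855 in females, and a 33-nt tag at NW_021838576.1 50028138, with 304 in males and 114 in females.

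**Figure D2:**
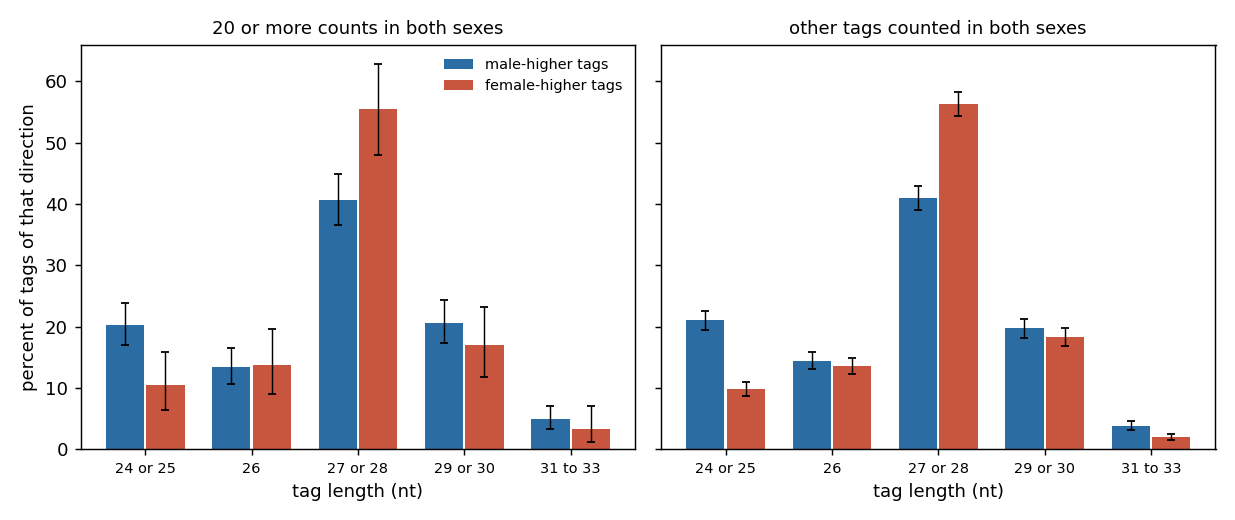
Percent of male-higher and of female-higher tags in each length class, for the 733 tags with at least 20 counts in both sexes (left) and for the 5290 other nuclear tags counted in both sexes (right). Bars are shares with 95% Clopper-Pearson intervals. In both panels the male-higher tags have more of 24 or 25 nt and fewer of 27 or 28 nt.

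Stacking was common. Tags that overlapped by at least 1 base were joined to loci, which turned the 733 tags into 592 loci. Of these, 513 were single tags and 79 were stacks of 2 to 15 tags, which held 220 tags (30.01%, 26.7 to 33.5). Male-higher tags lay in stacks in 31.8% (27.9 to 35.8) and female-higher tags in 24.7% (18.6 to 31.7), intervals that overlap. Summed over a locus, 436 of the 592 loci (73.6%, 69.9 to 77.2) were higher in males, close to the share of single tags.

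Tags of one stack mostly shared a direction, in a set of which 75.2% were male-higher. All tags were higher in males in 55 stacks and in females in 15, and 9 stacks held both. With RLE factors 22 stacks held both. In the 55 male-higher stacks the SD of the log2 ratio among tags of a stack was 0.42, against 0.53 over all male-higher tags. In the 15 female-higher stacks it was 0.20, against 0.47 over all female-higher tags. Of the 323 overlapping pairs of tags, 52 shared the first base, 93 the last base and 178 neither. The median difference of the log2 ratio within a pair was 0.32, 0.32 and 0.38 for these kinds, and the intervals of the ratios lay apart in 3, 11 and 33 pairs. Opposite directions were found in no pair with a shared first base, in 2 with a shared last base and in 16 that shared neither end. First and last are in scaffold coordinates, and without strand they cannot be read as 5′ and 3′ ends.

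The stack with most counts, 7 tags within 44 bases at NW_021839020.1 25193089 to 25193132, had 9378 counts in males and 2299 in females, 5.30-fold (5.06 to 5.55) higher in males. Its tags ranged from 3.49-fold (2.78 to 4.43) for a 26-nt tag to 8.33-fold (5.29 to 13.7) for a 24-nt tag. The 24-nt t00000734 and the 27-nt t00001425, which end on the same base and start 3 bases apart, were 4.98-fold (4.69 to 5.29) and 6.08-fold (5.56 to 6.67) higher, so their intervals did not overlap.

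The stack at NW_021837045.1 35722 to 35753 showed the widest spread among stacks with 1 direction. Its 6 tags of 26 to 32 nt had 7637 counts in males and 2076 in females, 4.78-fold (4.55 to 5.02) higher in males. The long tags of 32 and 31 nt that frame the stack were 2.44-fold (1.97 to 3.02) and 2.11-fold (1.30 to 3.47) higher. The most counted tag, 26 nt from base 35726 to 35751, was 3.62-fold (3.40 to 3.86) higher. One base more at its last end gave 6.90-fold (6.24 to 7.65), and one base more at its first end gave 6.08-fold (4.73 to 7.91). The 28-nt tag with both additional bases was the one at 21.4-fold (16.2 to 28.7). Tags a base apart at the same place thus differed in their male over female ratio by more than counting error.

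In some other male-higher stacks the folds lay closer together. At NW_021837267.1 27236463 to 27236494, 7 tags of 24 to 32 nt shared their last base and each had its own first base. Their folds lay between 5.48 (4.47 to 6.77) and 10.5 (7.34 to 15.5) in favour of males, with the intervals of these extremes apart, and together they had 1189 TPM in males and 168 TPM in females, 7.06-fold (6.38 to 7.82) higher. The mirror image lay on the same scaffold at 27238398, where 4 tags of 24 to 33 nt shared their first base and were 3.70-fold to 7.52-fold higher in males. The largest stack, 15 tags within 36 bases at NW_021839020.1 67138177 to 67138212, had 8 first and 5 last bases. All its tags were between 3.08-fold and 6.71-fold higher in males, and no tag held more than 20.3% of its counts. A stack of 4 tags at NW_021839130.1 50828266 was 6.84-fold (5.69 to 8.27) higher in males, and one of 5 tags at 50840999 on the same scaffold 3.41-fold (3.11 to 3.75). On the female side the largest stack with 1 direction was that of 4 tags of 28 to 30 nt at NW_021837600.1 41743373 to 41743404, with 113 TPM in males and 249 TPM in females, 2.20-fold (1.89 to 2.56) lower in males.

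**Figure D3:**
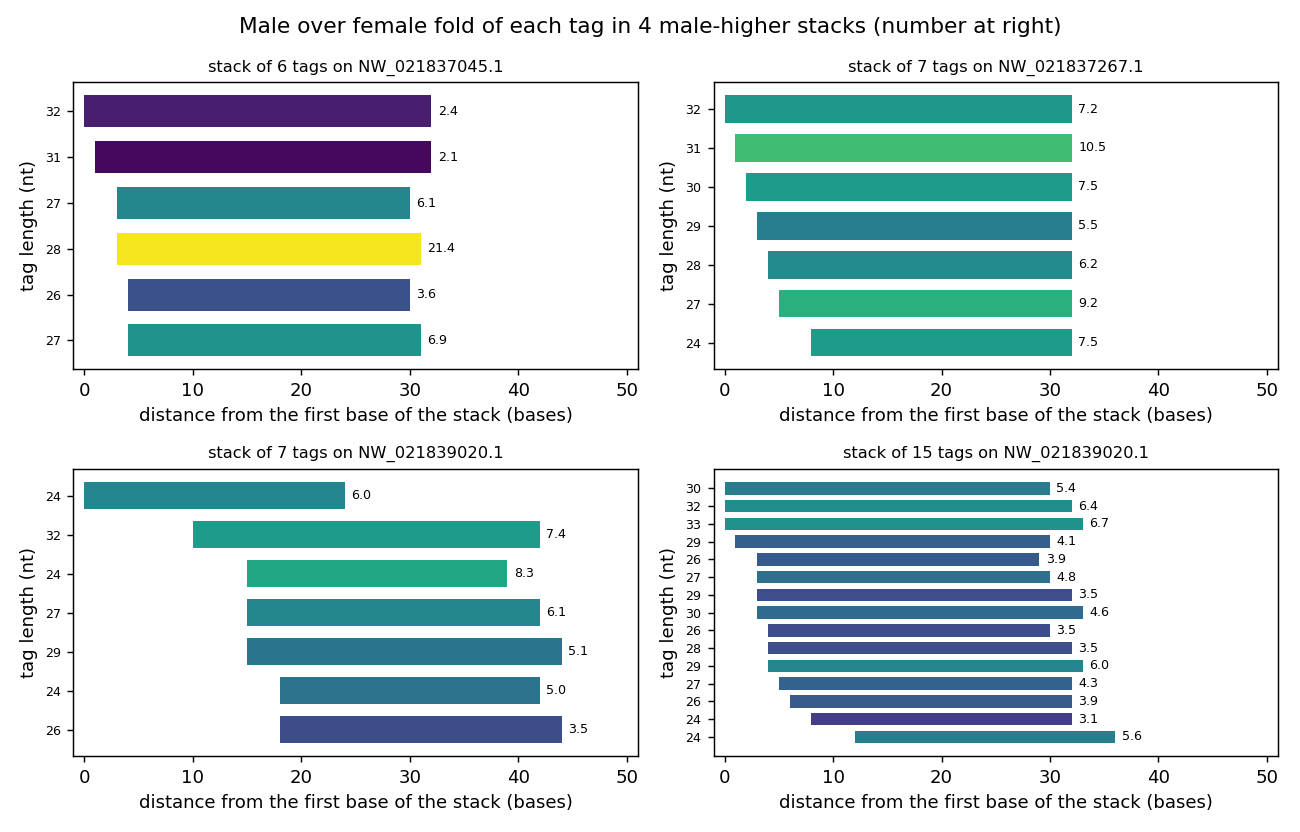
Tags of 4 male-higher stacks drawn by their distance from the first base of the stack, with tag length at left and the male over female fold at right (colour runs with the fold). Folds range from 2.11 to 21.4 in the first stack and from 5.48 to 10.5 in the second.

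In the 9 mixed stacks, overlapping tags were listed with opposite directions. Each listed tag is at least 2-fold apart and each of the 733 has 20 or more counts in both sexes, so an interval that leaves out 1 follows from the choice of tags. On NW_021838153.1 a 31-nt tag at 168066301 had 399 counts in males and 1143 in females, 2.20-fold (1.97 to 2.48) lower in males. A 30-nt tag that starts a base later and ends on the same base had 173 counts in males and 109 in females, 2.06-fold (1.61 to 2.65) higher in males. The same was seen on NW_021837489.1, where the 27-nt tag at 1728385 was 2.41-fold (1.48 to 4.0) higher and the 26-nt tag at 1728386, with the same last base, 2.31-fold (1.48 to 3.71) lower in males. On NW_021837045.1 at 151624403, 5 of 6 tags were 2.03-fold to 3.09-fold higher in males. The sixth, 25 nt from base 151624405, had 123 counts in males and 340 in females, 2.13-fold (1.73 to 2.64) lower in males. At NW_021838787.1 525666, 3 of 4 tags were 2.25-fold to 3.98-fold lower in males, and the 26-nt tag at 525667 was 2.54-fold (1.53 to 4.35) higher. The remaining mixed stacks had 2 or 3 tags each, and in the one with the widest contrast, at NW_021838798.1 32314350, 27-nt tags shifted by 4 bases were 2.1-fold (1.47 to 3.03) higher and 4.04-fold (2.60 to 6.54) lower in males. With RLE factors the male-higher tags under 2.26-fold, those of the stack on NW_021838153.1 among them, turned to lower in males. Where several tags of one site are listed, tags under 2-fold apart are not among them, so the spread at a site is seen only in part.

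**Figure D4:**
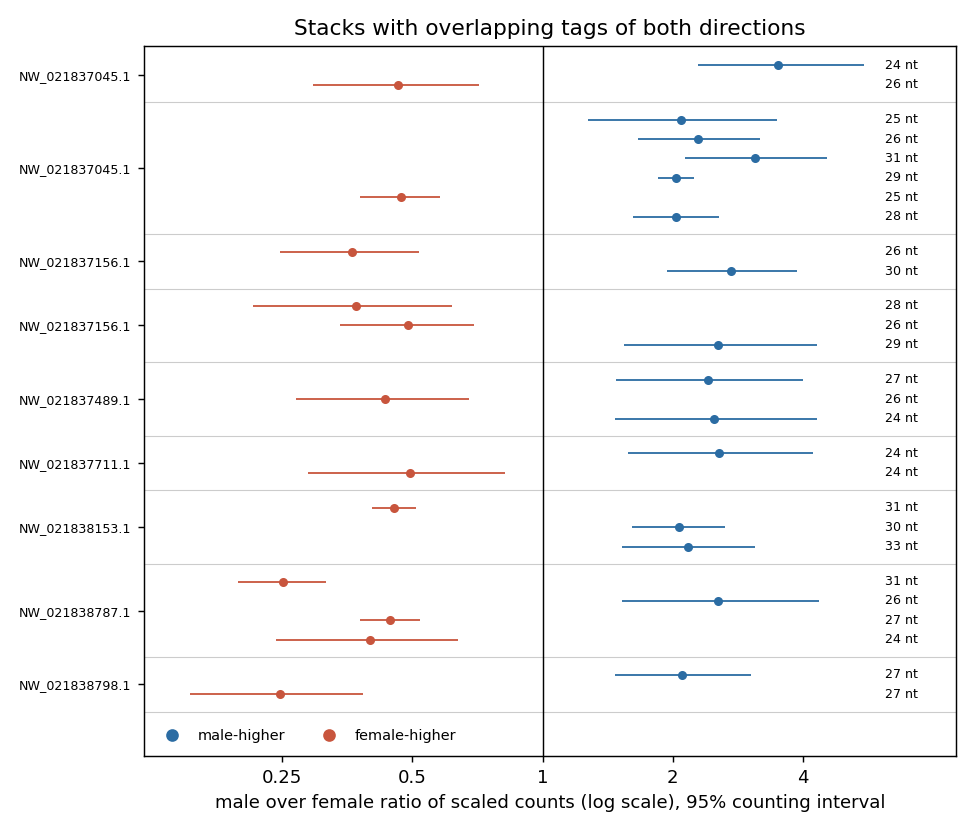
Male over female ratio of each tag in the 9 stacks that hold both directions, with 95% counting intervals on a log scale; tag lengths are at right. Tags of both directions overlap in position within each stack, and intervals clear of 1 follow from the choice of tags.

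The less counted tags at the same sites mostly went the same way. Of the 733 tags, 463 (63.2%) were overlapped by listed tags with fewer than 20 counts in one or both sexes. Of 790 such tags that overlapped male-higher members of the 733 alone, 606 (76.7%, 73.6 to 79.6) were higher in males. Of 266 that overlapped female-higher ones alone, 250 were higher in females (93.98%, 90.4 to 96.5). Of the 20487 listed nuclear tags that overlapped none of the 733, 27.2% (26.6 to 27.8) were higher in males. Limited to tags counted in both sexes the shares were 86.2% (82.4 to 89.4) and 94.1% (88.3 to 97.6), and 47.2% (45.7 to 48.6) of those that overlapped none were higher in males. These are the same 2 columns, so the agreement of neighbours is no replicate.

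The 733 tags lay on 81 of the 685 nuclear sequences with listed tags, and 40 of the 81 carried a single one. The 5 scaffolds with most, NW_021839130.1, NW_021837045.1, NW_021837156.1, NW_021838798.1 and NW_021838153.1, carried 305 (41.6%), with 76, 64, 62, 54 and 49 tags. They were also rich in listed tags in general, with 1302, 1774, 1117, 1388 and 1279 of the 22304 listed nuclear tags. Among the 17 scaffolds with 10 or more tags, the male-higher share ranged from 14.3% of 28 tags on NW_021837600.1 to 93.2% of 44 tags on NW_021837489.1. Female-higher tags were the majority on 2 of the 17, NW_021837600.1 and NW_021838599.1, the last with 7 of 18 tags higher in males.

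Groups with gaps of at most 10 kb numbered 335, and 235 of them were single tags. The 28 regions of 5 or more tags held 312 tags (42.6%, 39.0 to 46.2), with like shares of the male-higher (42.8%) and the female-higher tags (41.8%). In 10 regions all tags were higher in males, in 2 all were higher in females, and 16 were mixed. Of the 10, 3 were a single stack of overlapping tags each. The largest, NW_021839130.1 50804430 to 50841171, had 38 tags in 29 loci, 34 of them male-higher, with 2945 TPM in males and 949 TPM in females, 3.10-fold (2.96 to 3.25) higher. On the same scaffold at 50168578 to 50191753, 15 of 16 tags were female-higher, with 469 TPM in males and 1009 TPM in females, 2.15-fold (2.00 to 2.31) lower in males. All 22 tags at NW_021837267.1 27236463 to 27239289 were male-higher, with 2434 TPM in males and 366 TPM in females, 6.65-fold (6.21 to 7.13) higher.

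The further regions given first here were mostly male-higher or wholly female-higher by count of tags. On NW_021837489.1, between bases 2337444 and 2363075, 17 of 19 tags were male-higher. Their summed TPM was 1.68-fold (1.53 to 1.84) higher in males, but 0.74 times the female sum with RLE factors. Of 15 tags at NW_021838798.1 32314350 to 32322434, 13 were male-higher, with a male over female sum of 1.86 (1.69 to 2.04), or 0.82 with RLE factors. Of 14 tags at NW_021837998.1 379290 to 401428, 12 were male-higher, with 1.56 (1.43 to 1.72), or 0.69 with RLE factors. All 9 tags at NW_021837600.1 49333491 to 49343930 were female-higher, 2.86-fold (2.5 to 3.28) lower in males in sum, and all 6 at 41741036 to 41743404 of that scaffold 2.56-fold (2.26 to 2.91) lower. By count of tags, other regions were nearly even or mostly, but not wholly, female-higher. At NW_021837156.1 57217612 to 57237795, 6 tags were male-higher and 5 female-higher. In sum this region was not even, with 2741 TPM in males and 1306 TPM in females. With RLE factors the male sum was 0.93 times the female sum. The male-higher tag t00000773 held 68.6% of the counts of the region. At NW_021837600.1 41710360 to 41723683, 1 tag was male-higher and 7 were female-higher.

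Loci close to each other tended to be higher in the same sex. Neighbouring loci with gaps of up to 1 kb had one direction in 124 of 143 pairs (86.7%, 80.0 to 91.8). The share was 71.1% (61.8 to 79.2) of 114 pairs at gaps over 1 to 10 kb, 64.1% (51.1 to 75.7) of 64 pairs over 10 to 100 kb and 64.7% (57.5 to 71.5) of 190 pairs over 100 kb. With RLE factors these shares were 63.6%, 61.4%, 60.9% and 55.8%, so the excess at short gaps was smaller under that scaling. With TMM factors they were 86.7%, 69.3%, 64.1% and 64.7%.

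**Figure D5:**
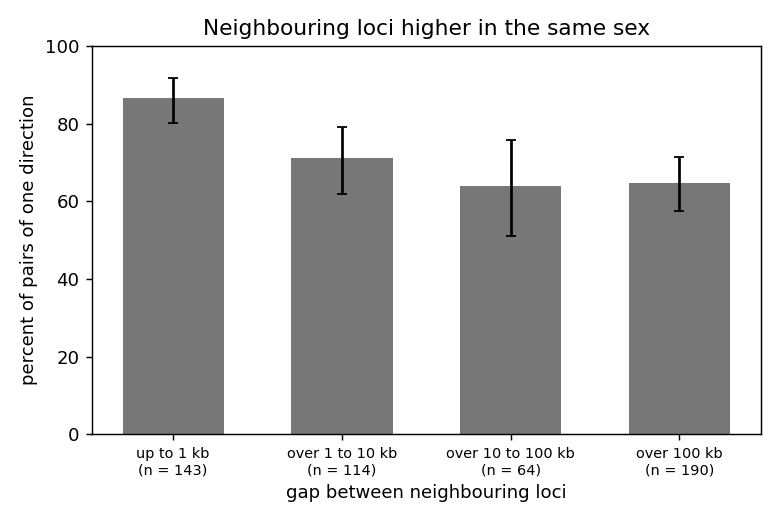
Percent of neighbouring loci, on one scaffold and grouped by the gap between them, that were higher in the same sex, with 95% Clopper-Pearson intervals. The share is 86.7% up to 1 kb and between 64.1% and 71.1% at wider gaps.

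End distances between tags gave small numbers. In the ping-pong cycle, PIWI-guided cuts turn transcripts into further piRNAs, and the partners lie on opposite strands with 10 bases of overlap at their 5′ ends. The first base of a tag and the last base of another spanned exactly 10 bases in 1 pair of the 733 tags, and 9 bases in 3 pairs, while 8, 11 and 12 bases were not found. A tag began directly after the last base of another in 4 pairs, as tags of phased cutting would lie, and no pair had a gap of 1 or 2 bases. At overlaps of 1 to 15 bases the most frequent was 1 base, in 5 pairs, and each overlap of 16 to 20 bases was found in 3 to 11 pairs. No test of an excess at any distance was made.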

How the data were processed

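Small RNAs of 3 male and 3 female whole-body libraries were, per the labels' protocols, isolated with TRIzol, gel-purified and ligated to adaptors, and Trimmomatic 0.30 is named in the submitters' processing notes. Aligner, counting, genome build, list filter and the joining of libraries were not given in the sources used here. Per the file headers, the authors deposited 1 table with whole-number counts per tag and sex, TPM values (count over column total, no length term) and log2 of male over female TPM; all were checked on the values. The smallest count above 0 was 2.

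Column totals were recovered from TPM and count. Ratios have exact conditional and shares exact Clopper-Pearson 95% intervals (SciPy 1.17.1, Python 3.11.15), tested on simulated data. The planned edgeR quasi-likelihood test needs replicates and was not run. TMM, RLE and upper quartile factors came from edgeR 4.0.16 in R 4.3.3. Other alternatives were other minimums, lengths, overlaps and gaps, merged loci, and omission of the 10 most counted tags or of the scaffold with most tags.

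Members and lists were chosen with earlier results of these data known. Tags named were the 10 most abundant per direction, the 6 furthest apart in each direction, the largest stacks and regions, mixed stacks, the longest and shortest with most counts, and those next to the minimum of 20 counts, in part given as ranges. The tags beside t00018529 were chosen after their values were seen.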

Additional observations from a re-analysis of the deposited data

How the results depend on the processing

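Of 102 recomputed values, 67 stayed within the counting interval or within 1.5 times the count given above. The scaling mattered most. With RLE factors 352 tags were higher in males and 381 in females, the median log2 ratio turned to -0.029 and the ratio of sums to 0.78, and 5 and 182 tags were at least 4-fold higher and lower in males. With TMM factors the median was 0.70, the ratio of sums 1.29, and 46 and 33 tags were at least 4-fold apart. The totals of the listed tags gave 1.04 and 1.64, and upper quartile factors 1.23 and 1.86, beside 1.15 and 1.76 with the implied totals. At a minimum of 10 counts, 1147 tags were higher in males and 567 in females, with 177 and 34 at least 4-fold apart, a median of 1.20, a ratio of sums of 1.61, and 51.5% of tags in regions. At a minimum of 50 counts the numbers were 155 and 48, with 27 and 3 at least 4-fold apart, a ratio of 1.87 and 20.7% in regions. A minimum of 10 TPM in both sexes, chosen after seeing the data, left 365 male-higher tags, a median of 1.10 and a ratio of 1.70. The ratio of sums was 1.79 for tags of 24 to 30 nt and 1.63 without the 10 most counted tags. With overlapping tags merged, 38 loci were at least 4-fold higher in males, of the 46 loci that hold such a tag. Regions held 19.8% of tags with gaps of at most 1 kb and 57.4% with gaps of at most 50 kb. Beyond the number of tags left by a minimum and the gap itself, the cause of these changes was not tested. The shares by length were not recomputed with other scaling factors, although RLE factors moved tags between the directions. Under each alternative run for them, the shares by length and the share of tags in stacks stayed within their intervals. So did the share of stacks with 1 direction under other minimums, omissions and overlaps, but with RLE factors 22 of the 79 stacks held both directions, against 9. No paired analysis was possible because the table has 1 column per sex, and for the same reason no library could be left out.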
